A study of Mus musculus with 34 samples.

Results

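The genes of major histocompatibility complex (MHC) antigen presentation were followed in brain tissue of mice whose microglia were depleted after irradiation and a bone marrow transplant, and of their controls. The 10 members were chosen by name: 6 class I genes (H2-K1, H2-D1, H2-T23, B2m, Tap1 and Tap2) and 4 class II genes (H2-Aa, H2-Ab1, H2-Eb1 and Cd74). They are 10 of the 16389 genes in the deposited table, and all 10 were among the 14710 genes that passed the filter on low values. RNA-seq libraries (34) came from the cortex, the hippocampus and the thalamus with the striatum of 12 male C57BL/6 mice.

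WT CON mice had no irradiation, no transplant and no PLX3397 (the treatment label reads vehicle). GFP-BM CON mice received 1000 cGy of whole-body irradiation and bone marrow of donors that express EGFP from the ubiquitous CAG promoter. GFP-BM REPOP mice received the same irradiation and marrow, then, 3.5 months later, PLX3397, an inhibitor of the colony-stimulating factor 1 receptor on which microglia depend, at 600 ppm in the chow for 14 days, and then 6 months of recovery. The sample labels give no age and no MHC haplotype of the marrow donors. Group sizes, in the order just given, were 3, 4 and 4 in the cortex, 4, 4 and 4 in the hippocampus and 4, 3 and 4 in the thalamus. The same animal gave up to 3 libraries, 1 per region. Because irradiation and transplant went together, they cannot be told apart, and the libraries are bulk tissue, in which fewer cells of a type and less RNA per cell cannot be told apart. The library totals ran from 17085018 to 26010509 reads in the listed genes.

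Class I molecules are carried by nearly all nucleated cells. H2-K1 and H2-D1 are the classical heavy chains, H2-T23 encodes the non-classical Qa-1, B2m is the light chain they share, and Tap1 and Tap2 form the transporter that brings cytosolic peptides to them. Class II molecules belong to professional antigen-presenting cells: H2-Aa and H2-Ab1 form the I-A dimer, and Cd74, the invariant chain, guides it to the endosome; its gene lies outside the MHC. H2-Eb1 is the beta chain of I-E, which the C57BL/6 haplotype does not complete because its alpha chain is not made. In the healthy brain, parenchymal microglia carry little class II, while macrophages and dendritic cells of the meninges, perivascular spaces and choroid plexus carry more.

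8 of the 10 members lie on chromosome 17, where the MHC is, and B2m lies on chromosome 2. Tap1, Tap2, H2-Ab1, H2-Aa and H2-Eb1 are neighbours there, from the start of Tap1 at 34187556 to the end of H2-Eb1 at 34316674 (GRCm38), while H2-K1 (33996012 to 34000619), H2-D1 (35263094 to 35267497) and H2-T23 (36029977 to 36032701) lie to either side. RefSeq promoter windows (build GRCm38.p6, 250 bases before to 50 bases after the start) were found for 7 of the 10, and 5 are shown, to set the similar pair H2-K1 and H2-D1 beside the light chain and the class II genes. Capitals mark matches, on either strand, to the Y box core CCAAT, the X2 box core TGACG, the palindromic kappaB site GGGGATTCCCC and the interferon regulatory factor core AANNGAAA. The H2-K1 window is chr17:34000298-34000597 on the minus strand.
H2-K1: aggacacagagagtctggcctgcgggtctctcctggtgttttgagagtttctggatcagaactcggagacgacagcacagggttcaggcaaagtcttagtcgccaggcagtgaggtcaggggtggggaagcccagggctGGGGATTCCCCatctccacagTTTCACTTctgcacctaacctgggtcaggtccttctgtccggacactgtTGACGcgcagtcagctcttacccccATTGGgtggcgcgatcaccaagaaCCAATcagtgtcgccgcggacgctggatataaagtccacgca
The H2-D1 window is chr17:35262844-35263143 on the plus strand.
H2-D1: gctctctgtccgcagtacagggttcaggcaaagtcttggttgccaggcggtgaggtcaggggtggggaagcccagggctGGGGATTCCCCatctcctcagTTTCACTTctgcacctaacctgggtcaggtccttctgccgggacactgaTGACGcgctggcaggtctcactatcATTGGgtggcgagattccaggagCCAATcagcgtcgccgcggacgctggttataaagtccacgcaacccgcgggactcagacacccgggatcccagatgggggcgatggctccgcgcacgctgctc
The B2m window is chr2:122147437-122147736 on the plus strand.
B2m: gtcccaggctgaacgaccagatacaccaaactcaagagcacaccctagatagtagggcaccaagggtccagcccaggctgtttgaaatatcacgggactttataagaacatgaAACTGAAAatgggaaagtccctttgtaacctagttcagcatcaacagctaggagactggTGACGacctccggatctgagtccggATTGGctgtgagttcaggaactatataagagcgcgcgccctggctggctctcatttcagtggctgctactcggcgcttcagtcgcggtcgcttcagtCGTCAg
The H2-Aa window is chr17:34287774-34288073 on the minus strand.
H2-Aa: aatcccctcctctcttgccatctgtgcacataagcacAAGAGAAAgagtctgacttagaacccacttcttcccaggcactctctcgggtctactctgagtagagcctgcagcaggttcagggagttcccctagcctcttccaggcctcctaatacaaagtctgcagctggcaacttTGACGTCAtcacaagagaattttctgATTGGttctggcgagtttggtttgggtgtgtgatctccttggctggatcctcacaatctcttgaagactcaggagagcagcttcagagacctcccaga
The H2-Eb1 window is chr17:34305617-34305916 on the plus strand.
H2-Eb1: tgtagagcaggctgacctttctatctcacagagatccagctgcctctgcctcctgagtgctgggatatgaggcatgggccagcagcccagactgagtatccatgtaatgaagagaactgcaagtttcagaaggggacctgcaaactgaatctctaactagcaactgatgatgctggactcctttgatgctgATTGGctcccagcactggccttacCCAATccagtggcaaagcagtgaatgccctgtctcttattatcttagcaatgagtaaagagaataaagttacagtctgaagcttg
The H2-K1 and H2-D1 windows were 90.4% identical over 228 aligned columns, and each held all 4 motifs. The kappaB palindrome was in 10 of 32851 RefSeq promoter windows (0.0304%), while CCAAT was in 37.4%, TGACG in 20.8% and AANNGAAA in 23.9%. H2-Aa held 1 CCAAT, 1 AANNGAAA and 2 overlapping TGACG matches, 1 per strand, and H2-Eb1 held 2 CCAAT matches and none of the other motifs. B2m held 1 CCAAT, 2 TGACG and 1 AANNGAAA match. A match describes letters and not a bound site.

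The class I heavy chains and B2m had higher median levels than any class II gene in every region, while Tap1 was below Cd74. On the FPKM scale (fragments per length of transcript and per library size, which allows levels to be set side by side between genes), the medians over the 11 cortex libraries were 82.9 for B2m, 23.3 for H2-D1, 19.9 for H2-K1, 15.3 for H2-T23, 3.66 for Tap2 and 1.57 for Tap1. The class II medians there were 2.64 for Cd74, 1.56 for H2-Aa, 1.24 for H2-Ab1 and 1.1 for H2-Eb1. In the cortex the FPKM range of H2-K1 overlapped those of H2-D1 and H2-T23, and those of Tap1, H2-Aa, H2-Ab1 and H2-Eb1 overlapped each other. The range of Cd74 overlapped those of Tap2, H2-Aa, H2-Ab1 and H2-Eb1, and that of Tap2 those of H2-Aa and H2-Ab1. The order within each of these pairs is not separated from the spread. In the hippocampus the median of Cd74 (5.96 FPKM, 12 libraries) was above that of Tap2 (5.02), and in the thalamus (7.11 against 4.49, 11 libraries) it was above as well, with overlapping ranges in both regions. Class II genes made up 3.39 to 14.5% of the summed FPKM of the 10 members. Reads behind the values were fewer for class II: 55 to 488 per library for Cd74 and 19 to 227 for H2-Aa, against 565 to 1684 for H2-K1. Of the 150-base stretches of the longest H2-D1 transcript, 1.79% also occur in H2-Q1, and 0.441% of those of H2-T23 occur in Gm7030, so those genes may share a small part of their reads; none was shared by the other 8.

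**Figure D1:**
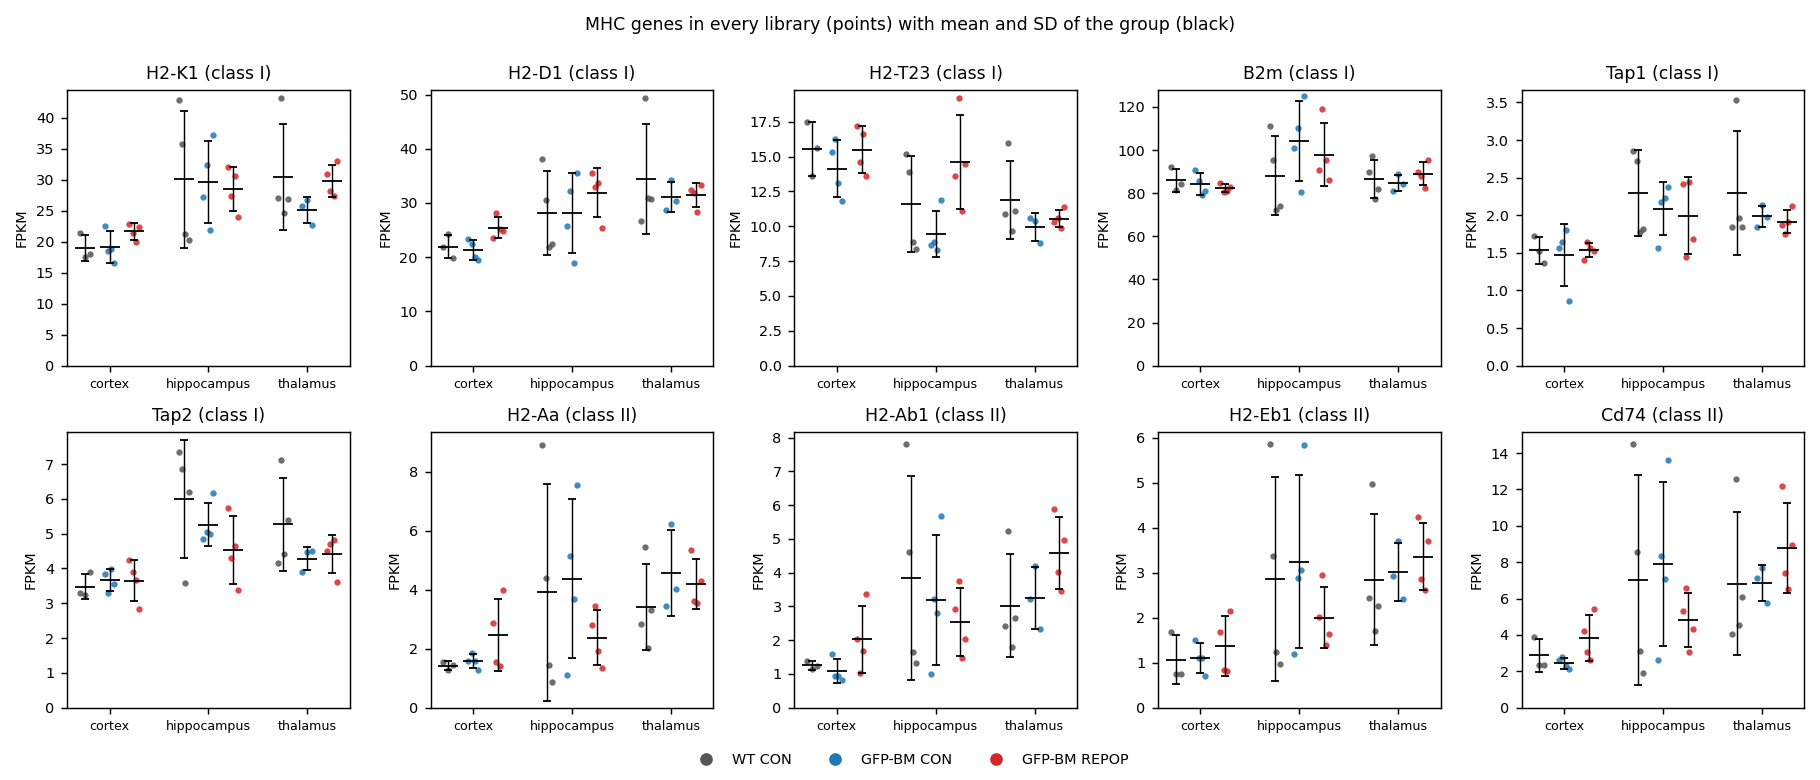
FPKM (y axis, from 0, with its own range in each panel) of each of the 10 MHC genes in all 34 libraries (points), by region and treatment (colours), with the mean and SD of each group in black. Class II genes of the hippocampus spread most: Cd74 ran from 1.92 to 14.5 FPKM among the 4 WT CON libraries.

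The 4 class II genes varied together from library to library, and more tightly than the class I genes did. After centring within regions, Pearson's r between class II pairs was 0.89 to 0.94 over the 34 libraries (6 pairs), against 0.22 to 0.83 for the 15 class I pairs and 0.31 to 0.75 for the 24 pairs across classes. These are descriptions over libraries that share animals, and genes within a library share its depth. Within class I, H2-K1 and H2-D1 were the closest pair (r = 0.83), and H2-T23 with Tap2 the loosest (r = 0.22). The ratio of H2-Aa to H2-Ab1 FPKM, the partner chains of I-A, had a median of 1.13 and ran from 0.656 to 1.98, and Cd74 stood at a median of 1.88 times H2-Aa, from 1.24 to 3.27 times. H2-Eb1 followed the I-A genes although its partner chain is not made in this strain. Among the genes that are no members, Cavin1 (r = 0.86), Anxa5 and Vtn (both 0.85), Tgfbr2 and Apod (both 0.84) varied most like the mean of the class I members. Cpq (0.82), Tgfbi (0.80), Tnfrsf1a and Ucp2 (both 0.79) and Tmem176b (0.78) varied most like the class II mean, over the same 34 libraries.

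In the cortex, none of the 10 members passed the test in any comparison of treatments. Class II was higher in some GFP-BM REPOP libraries and not in others. Across all genes tested, 0.734% were called (adjusted p below 0.05) between GFP-BM REPOP and WT CON, 0.32% between GFP-BM CON and WT CON, and 0.0476% when GFP-BM REPOP was set against GFP-BM CON, by limma's moderated test on log2(FPKM + 0.1) with Benjamini-Hochberg adjustment over all genes. The same test without adjustment gave p below 0.05 for 1, 0 and 3 members in that order, where 14.3%, 16% and 4.27% of all genes tested had such a p, and voom, also run, called 0 members in each.

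Cd74 in the cortex was 3.9, 2.36 and 2.35 FPKM in WT CON, 2.63, 2.77, 2.29 and 2.11 in GFP-BM CON, and 4.22, 3.04, 2.64 and 5.45 in GFP-BM REPOP. Animals 1 and 4 of GFP-BM REPOP were above all control libraries, and animals 2 and 3 lay among them. The log2 fold change of GFP-BM REPOP against GFP-BM CON was 0.58 (95% interval 0.09 to 1.07, adjusted p = 1), and against WT CON 0.39 (-0.13 to 0.92, adjusted p = 0.49). H2-Ab1 was 2.04, 1.01, 1.67 and 3.36 FPKM in GFP-BM REPOP, 1.6, 0.937, 0.949 and 0.808 in GFP-BM CON, and 1.39, 1.13 and 1.24 in WT CON. Animals 1, 3 and 4 were above all controls, animal 3 by a small margin, and animal 2 lay among them. Its estimate against GFP-BM CON was 0.78 (0.12 to 1.44, adjusted p = 1). H2-Aa reached 2.86 and 4.0 FPKM in animals 1 and 4 and stayed at 1.56 and 1.4 in animals 2 and 3, where the controls ran from 1.26 to 1.85. H2-Eb1 did so less clearly, since WT CON animal 34 (1.69) reached the level of animal 1 (1.68). Animals 1 and 4 also had the higher summed FPKM of 5 marrow-derived macrophage markers (84.2 and 96.4, against 59.4 and 60.8 in animals 2 and 3) and of 6 border macrophage markers (22.3 and 10 against 6.88 and 8.5). In animal 1 the single gene Cbr2 made up 12.9 of the 22.3 FPKM. Lyz2 alone made up most of the marrow-derived macrophage sum in each of these libraries. The part of these markers in the class II values was not tested.

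H2-D1 was the class I gene that stood out in the cortex. It was 23.6, 28.2, 25.2 and 24.8 FPKM in GFP-BM REPOP, 23.3, 22.5, 20.1 and 19.5 in GFP-BM CON, and 21.8, 24.2 and 19.9 in WT CON. GFP-BM REPOP lay wholly above GFP-BM CON, which was so for 1.41% of all genes tested, and overlapped WT CON. Its log2 fold change was 0.25 ± 0.08 (SE; interval 0.08 to 0.42, limma adjusted p = 0.78) against GFP-BM CON and 0.21 ± 0.08 (adjusted p = 0.29) against WT CON. H2-K1 had 0.19 (-0.02 to 0.39) and 0.20 (-0.02 to 0.41) in the same comparisons. B2m was the steadiest member, with 82.3 ± 1.97 FPKM (SD, n = 4) in GFP-BM REPOP, 84.1 ± 5.19 (n = 4) in GFP-BM CON and 85.9 ± 5.36 (n = 3) in WT CON, and a log2 interval of -0.14 to 0.08 for GFP-BM REPOP relative to GFP-BM CON. For Tap1, Tap2 and H2-T23 the estimates of the 3 cortex comparisons lay between -0.14 and 0.14.

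In the hippocampus no member passed the test either, and class II differed more among mice of 1 treatment than between treatments. Called genes made up 0.0136% of those tested for GFP-BM REPOP against WT CON, 0.0% for GFP-BM CON against WT CON and 0.0272% for GFP-BM REPOP against GFP-BM CON; 0, 0 and 1 of the 10 members had an unadjusted p below 0.05, beside 9.67%, 23.9% and 11.7% of all genes, and voom called 0 in each.

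Cd74 was 14.5, 8.58, 3.12 and 1.92 FPKM in WT CON, 2.62, 8.33, 7.06 and 13.6 in GFP-BM CON, and 5.31, 6.6, 3.05 and 4.34 in GFP-BM REPOP. The control groups spanned the whole range and GFP-BM REPOP fell inside it. H2-Aa ran from 0.876 to 8.91 FPKM in WT CON, from 1.12 to 7.54 in GFP-BM CON and from 1.33 to 3.46 in GFP-BM REPOP. The 95% intervals of the log2 fold changes were accordingly wide, -1.49 to 1.14 for Cd74 and -1.77 to 1.25 for H2-Aa in GFP-BM REPOP against WT CON, so that a 2-fold difference in either direction is inside them. For H2-K1 (-0.53 to 0.51) and B2m (-0.21 to 0.53) it is outside. The residual SD of the 4 class II genes in this region was 0.889 to 1.12 on the log2 scale, larger than that of 94.9 to 97.6% of the genes tested, while the 6 class I genes had 0.26 to 0.379.

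The class II level of a hippocampus library varied with the markers of several cell types. Choroid plexus markers (Ttr, Folr1, Kl, Aqp1 and Kcne2) summed to 6460 FPKM in animal 33 of WT CON and to 1120, 4880 and 6330 in animals 6, 7 and 9 of GFP-BM CON, against 29.3 to 759 in the other 8 libraries. Those 4 libraries held 4 of the 5 highest Cd74 values, while animal 34 of WT CON, with Cd74 at 8.58 FPKM, had 29.3 FPKM of choroid plexus markers but 32.9 of border macrophage markers, and 42.4 of hippocampus markers where the rest of WT CON had 77.9 to 96.6. Animal 1 of GFP-BM REPOP was like it in the border macrophage and hippocampus lists (37.0 and 45.2) with Cd74 at 5.31 FPKM. Both border macrophage sums rest on 1 gene, Cbr2, at 25.3 FPKM in animal 34 and 29.1 in animal 1, while no other gene of that list was above 6.48 FPKM in any library. Without the 4 libraries of over 1000 FPKM, a choice made after seeing the data, the Cd74 estimate for GFP-BM CON against WT CON moved from 0.36 to -0.49 (interval -2.14 to 1.15), and that for GFP-BM REPOP against GFP-BM CON from -0.54 to 0.80 (-0.79 to 2.40). For GFP-BM REPOP against WT CON, with 3 WT CON libraries left, the 4 class II estimates turned from below 0 to above it: H2-Aa from -0.26 to 0.30, H2-Ab1 from -0.31 to 0.14, H2-Eb1 from -0.20 to 0.25 and Cd74 from -0.17 to 0.31. Only control libraries were left out. That of animal 33 held the highest WT CON value of all 4 class II genes, so leaving it out could only raise these estimates. The limit leaves a single GFP-BM CON library, which the fit takes to vary like the others, and no member was called. Across the 12 hippocampus libraries, r between the class II mean and the log2 sum of markers was 0.62 for choroid plexus, 0.89 for fibroblasts of the meninges, 0.40 for border macrophages, 0.53 for microglia, 0.51 for general myeloid cells and 0.53 for endothelium. The class I mean had 0.17, 0.81, 0.66, 0.44, 0.64 and 0.80 in the same order. With marrow-derived macrophage markers r was 0.25 for class II and 0.37 for class I. The libraries share animals with other regions and differ in depth, and the part of the markers in the class II values was not tested otherwise.

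**Figure D2:**
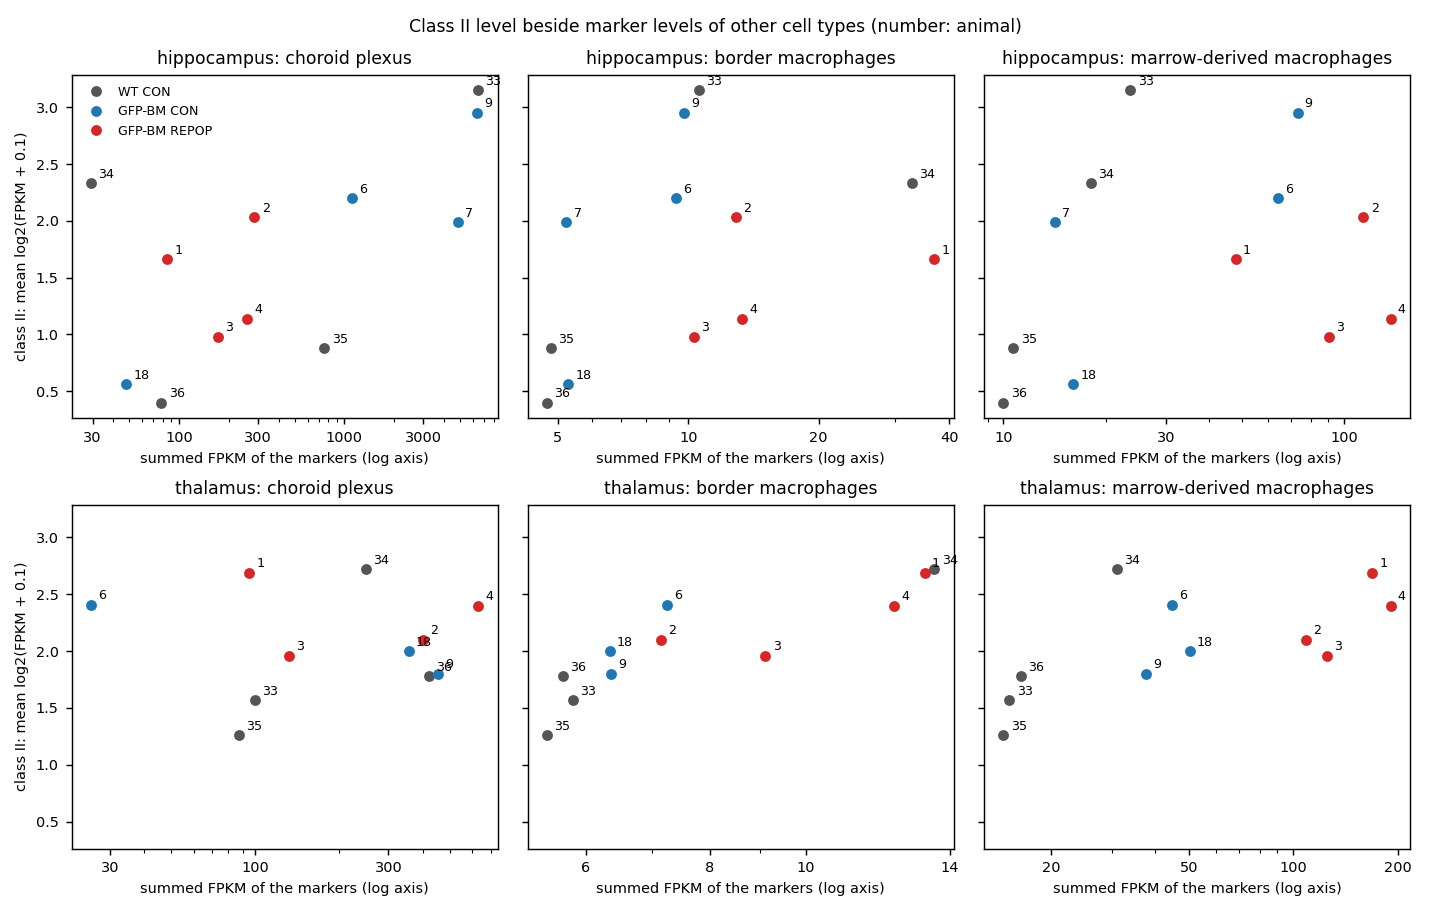
Mean log2(FPKM + 0.1) of the 4 class II genes (y axis) against the summed FPKM of choroid plexus, border macrophage and marrow-derived macrophage markers (x axes, logarithmic) in the hippocampus and thalamus, 1 point per library, coloured by treatment and numbered by animal. Animals 33, 9, 6 and 7 sit high for both class II and choroid plexus markers in the hippocampus, and animal 34 is high without them. Animal 2 (2.03, with 286 FPKM of these markers) sits beside animal 7 (1.99, with 4880 FPKM) for class II.

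H2-T23 was the class I gene with the largest hippocampal difference. It was 13.6, 19.2, 11.1 and 14.5 FPKM in GFP-BM REPOP, 8.65, 8.89, 8.29 and 11.9 in GFP-BM CON, and 15.2, 13.9, 8.9 and 8.39 in WT CON. A single GFP-BM CON library (11.9) reached above the lowest GFP-BM REPOP library (11.1), and WT CON split into a high and a low pair. Relative to GFP-BM CON, the log2 fold change of GFP-BM REPOP was 0.61 ± 0.22 (SE; interval 0.13 to 1.10, limma adjusted p = 0.34). Among the alternatives run it passed only when all 9 groups shared 1 fit (limma adjusted p = 0.046, the range over the alternatives being 0.046 to 1), a fit that called 4.52% of all genes. The other class I genes had estimates of -0.37 to 0.24 over the 3 hippocampus comparisons. Tap2 was lowest in GFP-BM REPOP, at 4.52 ± 0.978 FPKM (SD, n = 4) against 5.99 ± 1.69 (n = 4) in WT CON. The interval of its log2 fold change was -0.87 to 0.12. Cortex markers in these hippocampus libraries summed to 73.6 to 191 FPKM in GFP-BM REPOP. They summed to 45.1 to 59.7 in GFP-BM CON and 60.0 to 66.1 in WT CON. The part of cortical tissue in the H2-T23 and Tap2 values was not tested.

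In the thalamus no member passed either. The 4 class II genes had estimates above 0 for GFP-BM REPOP against WT CON, also under the other scalings tried, and the class I estimates lay on both sides of 0. The median log2 fold change of GFP-BM REPOP against WT CON was 0.41 over the 4 class II genes and -0.12 over the 6 class I genes, beside -0.05 over all genes tested. For GFP-BM CON against WT CON the medians were 0.18, -0.19 and -0.06, and for GFP-BM REPOP against GFP-BM CON 0.23, 0.05 and -0.01. The first and second of these comparisons share the WT CON libraries, and in the second the class II estimates above 0 fell from 4 to 2 under quantile normalization, which put the median of all genes at -0.12. Called genes made up 0.836%, 0.0% and 0.0% of those tested, and no member had an unadjusted p below 0.05 in limma, which 25%, 20.7% and 0.945% of all genes had, or a call in voom.

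H2-Ab1 was 5.89, 4.02, 3.44 and 4.96 FPKM in GFP-BM REPOP, 3.22, 4.19 and 2.33 in GFP-BM CON, and 2.41, 5.23, 1.78 and 2.66 in WT CON. Each GFP-BM REPOP library lay above 3 of the 4 WT CON libraries, and that of animal 34 lay among them. The log2 fold change of GFP-BM REPOP against WT CON was 0.67 ± 0.31 (SE; interval -0.02 to 1.35, limma adjusted p = 0.21). Cd74 was 12.2, 7.41, 6.53 and 8.95 FPKM in GFP-BM REPOP, 7.11, 7.68 and 5.77 in GFP-BM CON, and 4.03, 12.6, 4.54 and 6.11 in WT CON. Its estimate was 0.47 (-0.25 to 1.19, adjusted p = 0.33). The WT CON library of animal 34 thus held the highest Cd74 value of the region.

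That library was also the highest of the region for all 6 class I genes: H2-K1 was 43.1 FPKM in it while 24.6 to 27.0 was the range of the rest of WT CON, and Tap1 was 3.53 against 1.84 to 1.96. B2m was 97.0 FPKM in it and 77.2 to 89.7 in the other 3. Its general myeloid markers summed to 181 FPKM (108 to 124 in the other 3), its border macrophage markers to 13.5 (5.48 to 5.82) and its endothelial markers to 109 (83.3 to 89.0). Without it, the log2 fold changes of GFP-BM REPOP against WT CON became 0.96 (0.44 to 1.49, adjusted p = 0.067) for H2-Ab1, 0.81 (0.33 to 1.29, adjusted p = 0.072) for Cd74, 0.62 (adjusted p = 0.10) for H2-Eb1 and 0.61 (adjusted p = 0.15) for H2-Aa, none of which passed. The class I estimates then lay between -0.08 and 0.19. That library held the highest WT CON value of each class II gene, so leaving it out could only raise the class II estimates. For the 4 class II genes it was the setting with the lowest limma adjusted p among those run. Over all settings that p ran from 0.067 to 0.38 for H2-Ab1 and from 0.072 to 0.56 for Cd74. H2-K1 in GFP-BM REPOP (30.9, 28.1, 27.4 and 33 FPKM) lay wholly above GFP-BM CON (25.8, 26.7 and 22.7), as 2.32% of all genes tested did, with a log2 fold change of 0.25 (-0.13 to 0.63, adjusted p = 1).

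**Figure D3:**
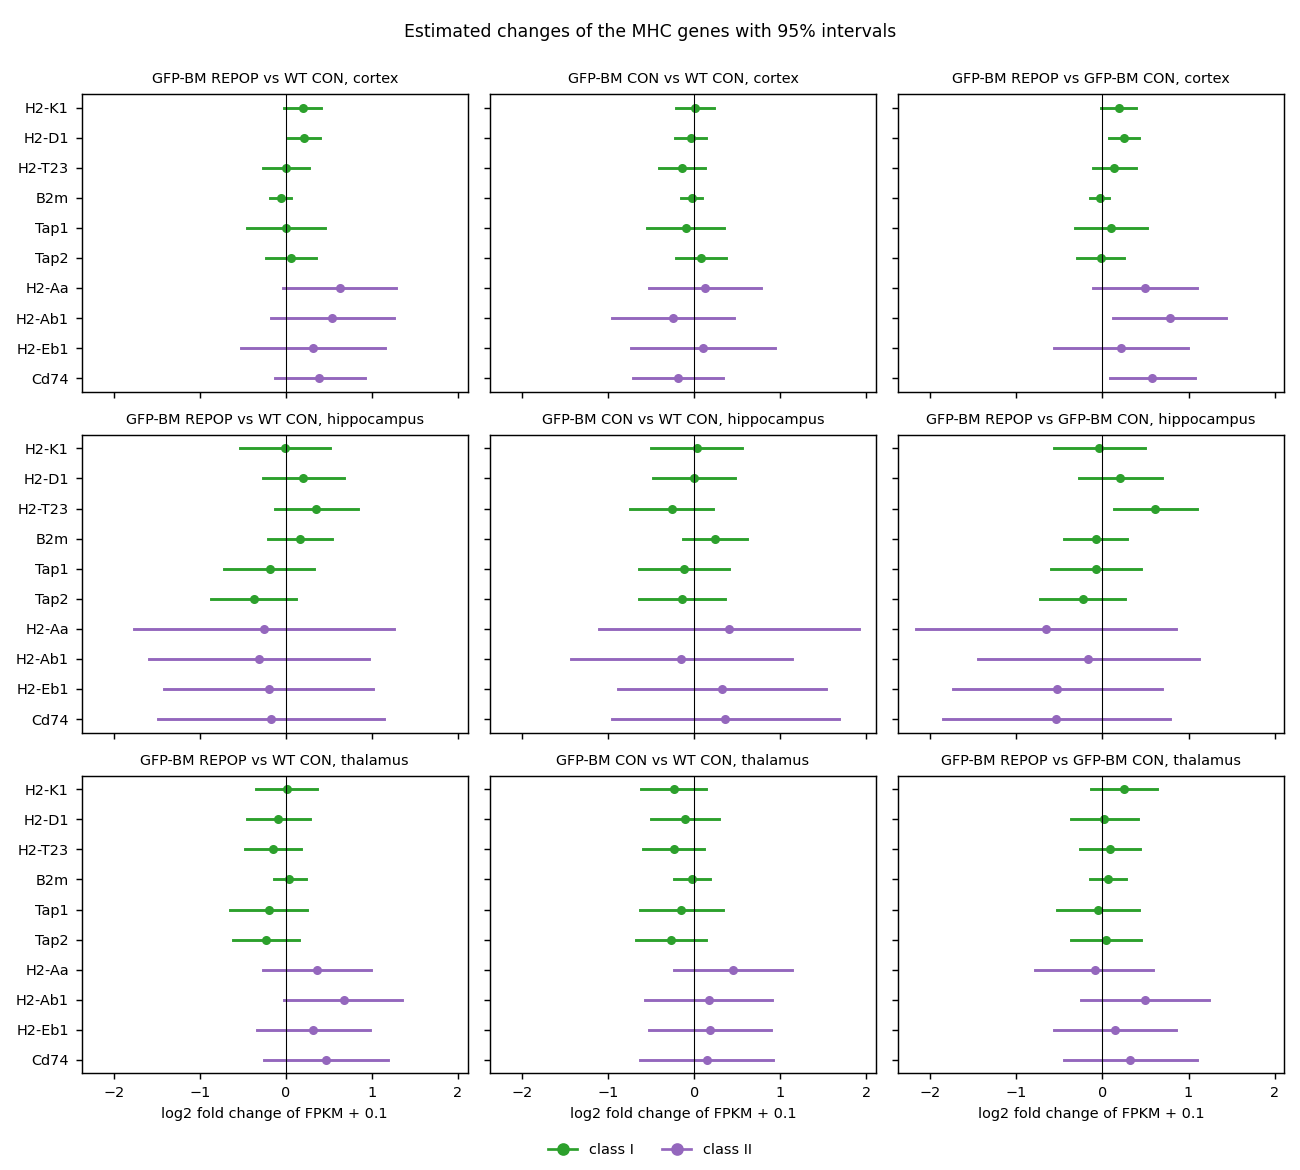
Log2 fold changes of FPKM + 0.1 (x axis, points) with 95% intervals (lines) from limma for the 10 genes in each of 3 comparisons (columns) and 3 regions (rows), class I in green and class II in purple. Class II intervals are wider than class I intervals, widest in the hippocampus, where that of H2-Aa runs from -1.77 to 1.25 between GFP-BM REPOP and WT CON.

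The marrow-derived macrophage markers (Ms4a7, Lyz2, Ms4a6c, Apobec1 and Clec12a) differed between treatments in the same libraries. Their summed FPKM in the cortex was 7.99 to 9.51 in WT CON, 11.5 to 20.1 in GFP-BM CON and 59.4 to 96.4 in GFP-BM REPOP. In the thalamus the ranges were 14.6 to 31.1, 37.6 to 50.3 and 109 to 191. In the hippocampus they were 10 to 23.6, 14.2 to 73.0 and 48.1 to 137. The cortex and thalamus groups did not overlap in this sum, while those of every class II gene did. The paper lists Ms4a7, Lyz2, Ms4a6c and Apobec1 in its monocyte signature. It drew that signature from genes that differed between WT CON and GFP-BM REPOP in these same data. Those groups were thus bound to differ in this sum, which is no yardstick for class II. Lyz2 alone made up most of the sum in every library. The highest H2-Aa value of the thalamus, 6.22 FPKM, was in GFP-BM CON, and the highest Cd74 value in WT CON. Of the dendritic cell markers, Itgax stayed at 0.0513 to 0.783 FPKM over all libraries, Flt3 ran from 1.2 to 6.26 and Zbtb46 from 1.39 to 3.35, and Xcr1, Clec9a and Cd209a were not in the table used here.

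Set beside class I within a library, class II overlapped between the treatments in every region. The mean log2 level of class II minus that of class I was -2.93 ± 0.24 (SD, n = 3) in WT CON, -2.95 ± 0.12 (n = 4) in GFP-BM CON and -2.53 ± 0.64 (n = 4) in GFP-BM REPOP cortex. In the hippocampus it was -2.20 ± 0.91, -1.93 ± 0.86 and -2.46 ± 0.43 (n = 4 each), and in the thalamus -2.09 ± 0.33 (n = 4), -1.68 ± 0.24 (n = 3) and -1.54 ± 0.29 (n = 4). The median log2 fold change of class II minus that of class I, GFP-BM REPOP against WT CON, was 0.43 for cortex, -0.31 for hippocampus and 0.53 for thalamus, beside within-group SDs of 0.42, 0.76 and 0.29 for the difference within a library. These are descriptions without a test, since the members were chosen by class.

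**Figure D4:**
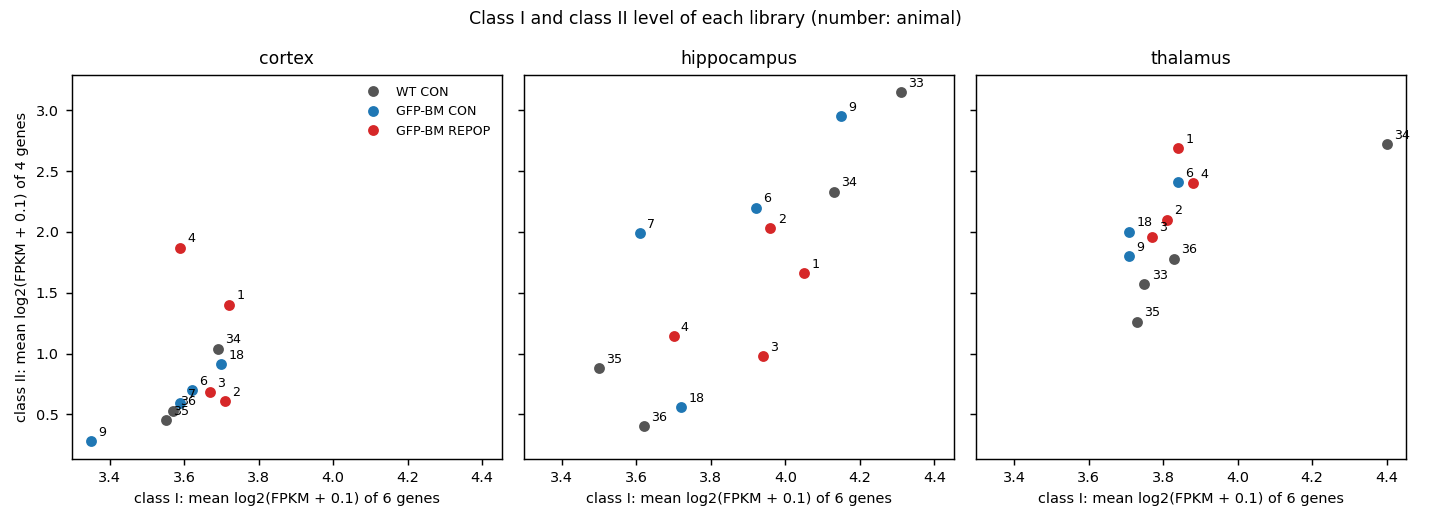
Mean log2(FPKM + 0.1) of the 6 class I genes (x axis) and of the 4 class II genes (y axis) in each library, by region, coloured by treatment and numbered by animal. In the cortex the libraries of animals 1 and 4 sit above the rest for class II (1.4 and 1.87), and in the thalamus animal 34 sits apart for class I (4.4).

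For class II the same mice did not keep 1 rank across all 3 regions. Animal 33 had the highest class II mean of the hippocampus (3.15) and the second lowest of WT CON in the thalamus (1.57), and animal 9 was second in the hippocampus (2.95) and lowest of all in the cortex (0.28). The hippocampus libraries of animals 33 and 9 held the highest sums of choroid plexus markers (6460 and 6330 FPKM). Animal 34 was the highest WT CON animal in the cortex (1.04) and thalamus (2.72), and animal 35 had 0.45 (cortex), 0.88 (hippocampus) and 1.26 (thalamus). In GFP-BM REPOP cortex, animals 1 and 4 (1.4 and 1.87) were above animals 2 and 3 (0.61 and 0.68). The same held in the thalamus (2.69 and 2.4 against 2.1 and 1.96). In the hippocampus animal 2 was the highest of GFP-BM REPOP (2.03). The correlation within animals that limma estimated across all genes was -0.04.

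Whether the effect of a treatment differed between regions was tested directly, as the difference between 2 fold changes, with libraries of 1 animal linked. No member passed in any of the 9 such tests, and none had an unadjusted p below 0.05, which 0.204 to 10.1% of all genes had. Called genes made up 0.034% of those tested for GFP-BM REPOP against WT CON in the hippocampus minus cortex, 0.034% in the thalamus minus hippocampus and 0.0% in the thalamus minus cortex; 0.177%, 0.0272% and 0.0% for GFP-BM REPOP against GFP-BM CON; and 0.0% in all 3 tests of GFP-BM CON against WT CON. The smallest p values were those of H2-T23. The log2 fold change of GFP-BM REPOP relative to GFP-BM CON was lower in the thalamus than in the hippocampus, with a difference (thalamus minus hippocampus) of -0.53 (-1.08 to 0.02, limma adjusted p = 0.67). For Cd74 the differences between regions in GFP-BM REPOP against WT CON had intervals of -2.0 to 0.85, -1.36 to 1.49 and -0.73 to 2.01 (hippocampus minus cortex, thalamus minus cortex and thalamus minus hippocampus).

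Between regions of untreated mice, members did differ. In WT CON, 2 of 10 members passed between hippocampus and cortex and 4 between thalamus and cortex, against 36.9% and 30% of all genes tested, so that being called was common for all genes. Between thalamus and hippocampus 0 members passed in limma, the only tool run for these comparisons, 0 had an unadjusted p below 0.05 (31.5% of all genes), and 17.7% of all genes were called. Tap2 was higher in the hippocampus than in the cortex by 0.73 ± 0.21 (SE, log2; adjusted p = 0.0083) and H2-K1 by 0.60 ± 0.21 (adjusted p = 0.027). In the thalamus, H2-K1 was higher than in the cortex by 0.65 ± 0.21 (adjusted p = 0.023), H2-D1 by 0.61 ± 0.20 (adjusted p = 0.022), Tap2 by 0.56 ± 0.21 (adjusted p = 0.041) and H2-Eb1 by 1.34 ± 0.51 (adjusted p = 0.047). B2m had estimates of 0.02 (-0.25 to 0.29) for the hippocampus and 0.01 (-0.26 to 0.28) for the thalamus. H2-T23, the member with estimates below 0, had -0.46 (-0.86 to -0.05, adjusted p = 0.068) in the hippocampus against the cortex.

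Which members passed between regions changed with the processing. Tap2 in the hippocampus against the cortex passed in all 19 alternative settings (limma adjusted p of 0.00038 to 0.038), and H2-K1 there in 13 of them. H2-K1 had 0.40 without the hippocampus libraries rich in choroid plexus markers, those of animals 33, 6, 7 and 9. It had 0.27 (limma adjusted p = 0.14) after a correction for the GC content and length of the genes, and passed in neither setting. It also did not pass without the cortex library of animal 35 or 36 or the hippocampus library of animal 33 or 34. H2-T23 passed as lower in the hippocampus in 5 of the 19, with -0.76 (limma adjusted p = 0.00094) after that correction. It had -0.61 without the libraries rich in choroid plexus markers. B2m passed in 1, with 0.85 (0.33 to 1.36, limma adjusted p = 0.0096) after the correction. In the thalamus against the cortex, H2-K1 and H2-D1 passed in 16 settings each, H2-Eb1 in 14 and Tap2 in 13. After the correction for GC content and length, H2-T23 passed there as lower (-0.62, limma adjusted p = 0.0068), while Tap2 (0.36, adjusted p = 0.083) and H2-Eb1 (1.11, adjusted p = 0.058) did not. The counts depended on single WT CON libraries. Between thalamus and cortex, 0 members were called without the thalamus library of animal 34 or without the cortex library of animal 36, 1 without the cortex library of animal 35 and 2 without that of animal 34. Between hippocampus and cortex, 1 was called without the cortex library of animal 35 or that of animal 36, 5 without the hippocampus library of animal 35 or the thalamus library of animal 34, and 6 without the hippocampus library of animal 36.

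Of the other genes of the pathway, 1 passed in any comparison of treatments. Among class I loading and peptide supply genes, 0 of 11 tested passed in any of the 9 comparisons within regions, and the same held for 10 further class I and class Ib genes, 10 class II loading and regulation genes, 3 constitutive proteasome subunits and Icosl, the only costimulatory gene tested. At an unadjusted limma p below 0.05 the class II loading list had 5 genes at most, in GFP-BM CON against WT CON cortex, where 16% of all genes had such a p, and the class I loading list 2 at most. The interferon list had 5 of 14 for GFP-BM REPOP relative to GFP-BM CON in the cortex, where 4.27% of all genes had it. The median log2 fold change of these 14 genes there was -0.12, beside -0.01 for all genes. All of these lists were tested with limma alone. Nlrc5 and Ciita, the transactivators of class I and class II, were under the filter on low values. Of 14 interferon response genes tested, 1 passed in 1 comparison: Bst2, which encodes tetherin, was 10.1, 6.95, 10.6 and 7.93 FPKM in GFP-BM REPOP cortex against 4.9, 4.8 and 5.13 in WT CON and 3.81 to 5.88 in GFP-BM CON. Its log2 fold change against WT CON was 0.81 ± 0.16 (SE; limma adjusted p = 0.043), and it passed in 9 of 23 alternative settings, with estimates of 0.72 to 0.92 and adjusted p values of 0.02 to 1.0. The median log2 fold change of the 14 genes in that comparison was -0.05, beside 0.02 for all genes.

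Single genes of these lists with the smallest p in GFP-BM REPOP against WT CON had estimates of either sign and, Bst2 apart, did not pass. March1, the ubiquitin ligase that removes class II from the cell surface, had 1.44 (0.61 to 2.28, limma adjusted p = 0.077) in the thalamus. Its level there was much the same in both irradiated groups, 4.81 to 5.57 FPKM in GFP-BM REPOP and 4.79 to 5.37 in GFP-BM CON. WT CON had 0.767 to 4.13 FPKM. Rfx5, a subunit of the factor that binds class II promoters, had 0.26 (0.11 to 0.42, adjusted p = 0.14) in the cortex. Psmb10, an immunoproteasome subunit, had 0.47 (0.12 to 0.82, adjusted p = 0.43) in the hippocampus, and Calr, the chaperone calreticulin, -0.35 (-0.67 to -0.04, adjusted p = 0.18) in the thalamus. Fcgrt, the neonatal Fc receptor, had -0.30 (-0.52 to -0.08, adjusted p = 0.24) in the cortex, and H2-T22 -0.29 (-0.52 to -0.07, adjusted p = 0.14) in the thalamus. Irf9, a subunit of the interferon-activated factor ISGF3, had -0.47 (-0.86 to -0.09, adjusted p = 0.46) in the hippocampus. Among the constitutive proteasome subunits, Psmb5 had -0.28 (adjusted p = 0.22) and Psmb6 -0.20 (adjusted p = 0.28) in the thalamus, and Icosl had 0.07 (-0.50 to 0.63) there.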

How the data were processed

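The authors aligned paired reads with STAR to mm10, counted them with featureCounts and deposited 1 table of FPKM values per gene and library, made with edgeR and limma, per the labels and the methods. Values were taken as deposited. All of them (100%) were whole multiples of 1 read per gene and library (tolerance 0.01), which gave read totals of 17085018 to 26010509. Genes with at least 1 FPKM in at least 3 libraries, protein-coding, long non-coding or of unknown biotype, were tested: 14710. The main test was limma-trend (limma 3.58.1, R 4.3.3) on log2(FPKM + 0.1), 1 fit per region over 3 groups, with Benjamini-Hochberg adjustment over all tested genes and a threshold of 0.05. Tests between regions fitted 9 groups, the animal being a random effect (duplicateCorrelation). Fold changes understate changes of low genes because of the pseudocount. Fits and read recovery were tested on simulated data. Replicates are different mice, and which library ran on which of the sequencing platforms named (NovaSeq, HiSeq) is not given in the sources used here. Alternatives were other pseudocounts (1 and 0.01), filters, scalings, fits, voom on recovered reads and leaving out libraries.

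The members and lists were chosen with earlier results of these data known. The text names all 10 members, genes of the fixed pathway lists that passed in any within-region comparison, the 2 of each list with the smallest p in GFP-BM REPOP against WT CON, and the 5 genes most like each class. Promoter windows and positions are from RefSeq GRCm38.p6, the same assembly as mm10; 15947 gene identifiers matched it. Promoters of Tap2, H2-Ab1 and Cd74 are not shown.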

Additional observations from a re-analysis of the deposited data

Results flagged for a closer look

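In all, 4 values stood farther from the rest of their group than Dixon's 95% limit for 4 libraries (0.829) allows, of 70 groups of 4 examined; chance flags about 1 group in 20. In the WT CON thalamus, H2-K1 was 43.1 FPKM in the library of animal 34, where the next was 27.0, and Tap1 was 3.53 FPKM there, where the next was 1.96. In the GFP-BM CON hippocampus, H2-T23 was 11.9 FPKM in the library of animal 9, where the next was 8.89, and Tap2 was 6.17 FPKM there, where the next was 5.05. All 4 are class I genes. All 4 class II genes were also highest of their group in these libraries, within the limit. Animal 34's thalamus library had the highest sum of myeloid markers of the region (181 FPKM), and animal 9's hippocampus library had 6330 FPKM of choroid plexus markers; the part of either in these values was not tested.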

How the results depend on the processing

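Within regions, the count of members called stayed at 0 under every alternative run in all 9 comparisons of treatments, with the exception of REPOP to GFP-BM CON in the hippocampus, where 1 (H2-T23) was called when all 9 groups shared 1 fit. The replicate block (same numbers, different mice) called 0 members in each; only 5 of 32 same-numbered pairs correlated above 0.1 (range -0.43 to 0.49), so the numbers do not pair the mice. In WT CON, quantile normalization called 5 members between hippocampus and cortex (2 in the main test), leaving out the libraries rich in choroid plexus markers called 7 between thalamus and cortex (4) and 1 between thalamus and hippocampus (0), and the correction for GC content and length also called 1 there; the cause was not tested. Leaving out single WT CON libraries gave 1 to 6, 0 to 5 and 0 to 0 calls for these 3 comparisons.

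The class II minus class I median moved by more than 1 SD only without the choroid plexus-rich libraries, to -0.53 for GFP-BM CON to WT CON and to 0.69 for REPOP to GFP-BM CON in the hippocampus (0.40 and -0.47 in the main test), where the sign turned; 1 GFP-BM CON library was then left. Leaving out each library in turn gave, in the order REPOP to WT CON, GFP-BM CON to WT CON and REPOP to GFP-BM CON, 0.12 to 0.62, -0.13 to 0.12 and 0.17 to 0.63 in the cortex, -0.62 to 0.04, 0.02 to 0.74 and -0.87 to -0.24 in the hippocampus, and 0.39 to 0.66, 0.26 to 0.50 and 0.05 to 0.27 in the thalamus, with 0 members called each time. Calls over all genes ranged over the settings, in the same order, from 27 to 242, 0 to 230 and 1 to 30 in the cortex (108, 47 and 7 in the main test), 0 to 411, 0 to 2849 and 0 to 665 in the hippocampus (2, 0 and 4), and 11 to 1954, 0 to 1347 and 0 to 4 in the thalamus (123, 0 and 0). Estimates of single members that were not called, WT CON regions included, changed sign 65 times under other settings and 115 times when a library was left out. Voom was run within regions only. Class II rested on as few as 19 reads per library (H2-Aa). Groups of 3 or 4 mice left class II intervals that include a 2-fold difference in the hippocampus. For GFP-BM REPOP against WT CON, some class II intervals of the other regions include a 2-fold rise as well. In the cortex they reach 1.28 for H2-Aa, 1.25 for H2-Ab1 and 1.15 for H2-Eb1 on the log2 scale. In the thalamus they reach 1.35 for H2-Ab1 and 1.19 for Cd74.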

Other observations

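Of the T cell markers listed, Cd4 and Lck were in the table used here, and Cd3e, Cd3d, Cd3g, Cd8a and Cd2 were not. Cd4 and Lck summed to 0.81 to 7.16 FPKM in 33 libraries and to 16.5 in the GFP-BM REPOP hippocampus library of animal 4. Lck was at most 1.19 FPKM in any library, so that the 16.5 was nearly all Cd4. In that library striatum markers summed to 1160 FPKM, against 44.1 to 373 in the other hippocampus libraries. The part of striatal tissue in the Cd4 value was not tested. The class II mean of that library (1.14 on the log2 scale) was lower than that of 7 of the other 11 hippocampus libraries. Summed microglial markers in the cortex were 69.9 to 78.8 FPKM in GFP-BM REPOP. They were 82.0 to 89.6 in GFP-BM CON and 90.7 to 108 in WT CON. Their r with the class II mean over the 11 cortex libraries was -0.20, a description. In the same libraries r was 0.72 for border macrophage, 0.69 for general myeloid and 0.64 for marrow-derived macrophage markers. For the remaining marker lists it lay between -0.34 and 0.19.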
